A study of Mus musculus with 24 samples.

Results

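Fas and Fas ligand (Fasl) were examined with the members of the death receptor pathway around them in the lacrimal gland, in 2 mouse strains with autoimmune disease. The set was Fas, Fasl, Fadd, Casp8, Cflar, Bid, Bcl2, Bcl2l11 and Tnfrsf10b, 9 genes out of 14181 genes named on either array. Every probe annotated to a member was taken, which gave 27 of 40066 probes. CodeLink carried 8 of them for 8 genes, with no probe named Bcl2l11, and all 8 passed the filter on low values. Affymetrix carried 19 probe sets for 9 genes, of which 13 for 8 genes passed, and neither Tnfrsf10b probe set did.

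Exorbital lacrimal glands were taken from adult mice of both sexes, of the strains MRL/MpJ-Tnfrsf6lpr (MRL/lpr) and nonobese diabetic/LtJ (NOD), after the onset of glandular disease, with no further age used here. Glands of 5 to 8 mice were pooled, and 3 pools were made for each sex and strain. Each labelled cRNA was hybridized to a CodeLink and to an Affymetrix array, so that the 24 arrays hold 12 pools and the platforms are repeated measurements of the same pools. Titles of the CodeLink samples, and not those of the Affymetrix samples, add the word placebo, with no agent named. All MRL/lpr mice carried the lpr allele and no MRL mice with an intact Fas gene were in the series, so the lpr mutation and every other difference between the strains cannot be told apart.

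Fas is a receptor of the tumor necrosis factor family that kills a cell when Fas ligand, found on activated T and natural killer cells, binds to it. The bound receptor gathers the adaptor Fadd and the protease Casp8, and Cflar blocks this step. Active Casp8 cuts Bid, which carries the signal to mitochondria, where Bcl2 opposes and Bcl2l11 (Bim) promotes death. The lpr mutation is an early transposable element inserted in an intron of Fas that cuts normal Fas transcript to a small part. Mice with it fail to delete lymphocytes, develop enlarged lymphoid organs, and on the MRL background develop inflamed lacrimal and salivary glands. In these strains lacrimal inflammation is known to be worse in MRL/lpr females and in NOD males.

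On the mouse assembly GRCm38.p6, Fas lies on chromosome 19 at 34290647 to 34327775. Fasl lies on chromosome 1 at 161780691 to 161788495. Cflar, at 58711311 to 58758884, and Casp8, at 58795233 to 58847503, are near each other on chromosome 1. Which exons the probes cover, and on which side of the lpr insertion, is not given in the sources used here.

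CodeLink values were normalized intensities with a median near 1 on each array, and a spot that the scanner software flagged as low is called at background here. NOD female arrays were the dimmest, at 11.4 to 12.6 raw units per normalized unit against 19.7 to 28.4 in MRL/lpr females, and 39.0% to 56.4% of spots were not flagged good over the 12 arrays. Affymetrix signals were rescaled to a trimmed mean of 500, and a signal of 100 or less is called at background. Female and male arrays were separated by Xist on Affymetrix, at 961 to 3987 in females and 24.2 to 181 in males. Acinar markers such as Ltf and Pigr were bright in all groups. Replicate 1 of MRL/lpr females and replicate 3 of NOD females stood apart on both platforms, with other tissue markers, mainly the salivary genes Bpifa2 and Amy1, summing to 1158 and 4169 on CodeLink. Replicate 2 of NOD females had smaller amounts, summing to 364, and the other 9 arrays had 19.0 to 80.2. The Affymetrix sums were 64366 and 150695, 12867 in replicate 2 of NOD females, and 1588 to 3147. Results that the first 2 pools change are given with and without them. A probe passed the test when its adjusted p in limma was under 0.05 over all probes of its platform, and the p-values measure the spread between pools.

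Fas was at background in every MRL/lpr pool and was clearly measured in every NOD male pool. On CodeLink the Fas probe read 2.03, 1.69 and 2.38 in the NOD male pools, and none of these spots was at background. The NOD female pools read 0.562, 0.424 and 0.444, all at background. The MRL/lpr female pools read 0.354, 0.389 and 0.250, and the male pools of that strain 0.327, 0.299 and 0.356. The 3 NOD male pools thus stood apart from the other 9, which all lay under the lowest of them. Raw intensities showed the same division without normalization, with 22.6 to 40.7 in NOD males against 4.87 to 7.09 in NOD females. The MRL/lpr females had 4.939 to 10.05.

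The Affymetrix Fas probe set gave the same order. It read 9.74, 50.2 and 20.2 in MRL/lpr females. MRL/lpr males read 47.4, 11.1 and 18.3. All 6 of these values were at background. NOD females read 68.2, 118 and 44.3, with 1 pool above background. NOD males read 248, 220 and 216, above all other pools. Fas ranked at the 41.4 percentile of mean intensity on CodeLink and at the 38.8 percentile of mean signal on Affymetrix, so it was a dim probe on both platforms.

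**Figure D1:**
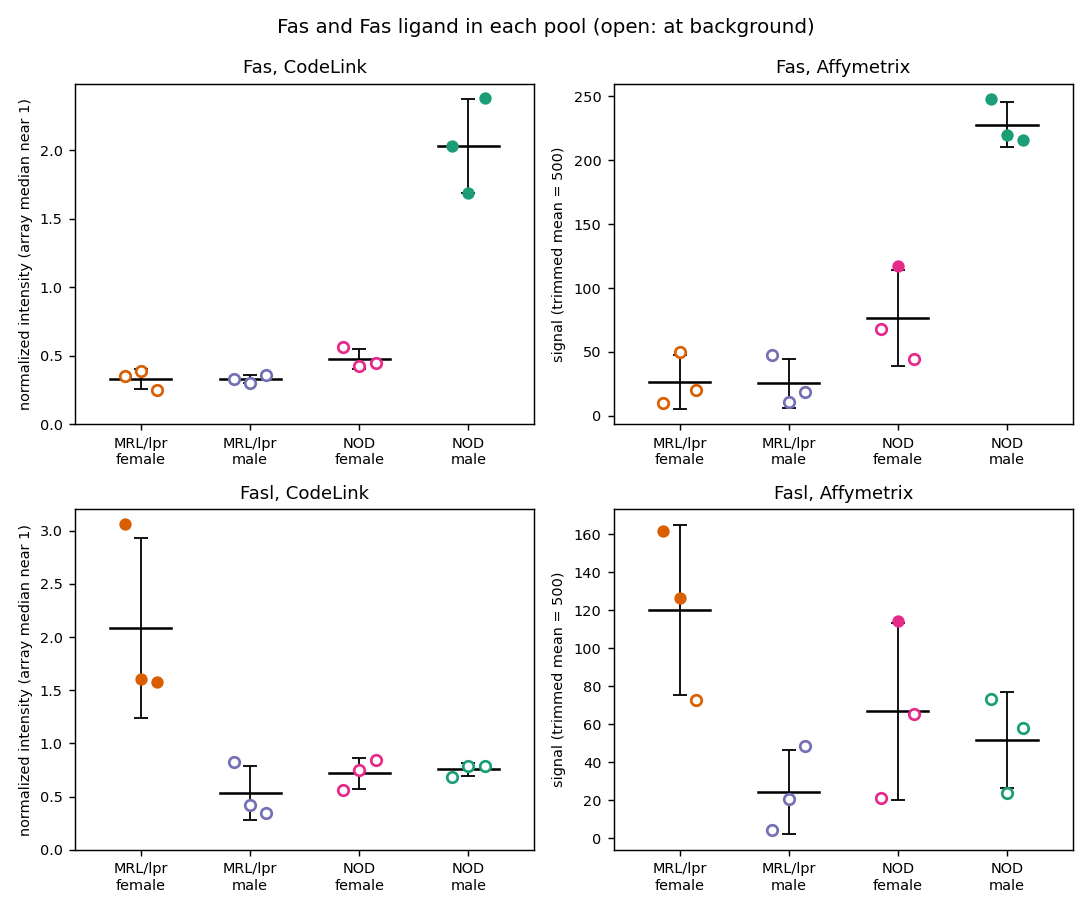
Normalized intensity (CodeLink) or rescaled signal (Affymetrix, probe set 1449235_at for Fasl) of Fas and Fasl, one point per pool, with the mean (line) and SD (bars) of the 3 pools in each group. Open points are at background, and Fas is above background in all pools of NOD males alone while Fasl is above it in all pools of MRL/lpr females alone on CodeLink.

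The first question was whether Fas differed between the strains. Averaged over the sexes, Fas was higher in NOD than in MRL/lpr on both platforms, mainly through NOD males. On each platform it exceeded the filter on low values in 4 arrays, all of NOD and including every NOD male pool. Fas was thus tested only through the strain where it was high, which limits what its p-values can add. The log2 difference, NOD minus MRL/lpr, was 0.92 ± 0.10 (SE, n = 6 pools per strain, limma adjusted p = 2.13e-05) on CodeLink and 1.31 ± 0.31 (adjusted p = 0.00636) on Affymetrix. An exact two-sided permutation of strain labels within each sex gave p = 0.005 on CodeLink, the smallest that its 400 arrangements allow, and p = 0.01 on Affymetrix. The limma calls held without each pool in turn. The methods' t-test was also run, over untransformed values. The study applied it between the sexes without adjustment, and its p-values were adjusted here over all tested probes. Between the strains it took the 6 pools of a strain as a single group, so differences between the sexes counted as spread. Its adjusted p for Fas was then 0.153 on CodeLink and 0.138 on Affymetrix.

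The strain difference in Fas was large in males and was not established in females. In males the log2 difference was 1.60 ± 0.14 (limma adjusted p = 2.63e-06) on CodeLink and 1.91 ± 0.44 (adjusted p = 0.00426) on Affymetrix. Since all MRL/lpr males were at background, this amounts to at least 2.14-fold higher intensity on CodeLink and at least 2.28-fold higher signal on Affymetrix, taking MRL/lpr at the lowest measurable level of each array. The measured means were 2.03 and 0.327 on CodeLink, and 228 and 25.6 on Affymetrix. In females the log2 difference was 0.23 ± 0.14 (adjusted p = 0.259) on CodeLink, with both strains at background, and 0.72 ± 0.44 (adjusted p = 0.373) on Affymetrix. A difference below background in females was not detectable on these arrays.

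Fasl had another distribution, with its highest levels in MRL/lpr females. On CodeLink, MRL/lpr females read 3.06, 1.61 and 1.58. MRL/lpr males read 0.821, 0.426 and 0.346. NOD females read 0.561, 0.748 and 0.844, and NOD males read 0.685, 0.788 and 0.792. Only the MRL/lpr female pools were above background, and they did not overlap any other group. The female strain difference was -1.04 ± 0.22 on the log2 scale (limma adjusted p = 0.00475), at least 1.51-fold higher intensity in MRL/lpr. It did not pass with the methods' t-test (adjusted p = 0.174). In males both strains were at background and the difference was 0.31 ± 0.22 (adjusted p = 0.344). The highest MRL/lpr female value came from replicate 1, which also carried salivary markers, and without it and replicate 3 of NOD females the difference was -0.86 (adjusted p = 0.0196).

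On Affymetrix 1 of the 2 Fasl probe sets was tested. Probe set 1449235_at read 162, 126 and 72.9 in MRL/lpr females and 4.21, 20.4 and 48.3 in MRL/lpr males. It read 20.9, 114 and 65.2 in NOD females, and 73.36, 23.99 and 57.98 in NOD males. MRL/lpr females had the highest mean, 120 ± 44.7 (SD, n = 3), but overlapped NOD females, and the strain difference in females was -0.59 ± 0.48 (adjusted p = 0.535). The probe set that was not tested, 1418803_a_at, passed 100 in 2 of 12 pools.

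Tnfrsf10b, the mouse receptor for the ligand Trail, gave values near or below background everywhere. Its CodeLink probe ranged from 0.696 to 1.11 over the 12 pools and was above background only in the 3 MRL/lpr female pools. NOD females, on dimmer arrays, reached 1.11 and counted as at background. Its strain difference was -0.06 ± 0.09 (limma adjusted p = 0.664). Its Affymetrix probe sets passed 100 in 0 and 1 of 12 pools.

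Among the proteins that assemble at the receptor, Cflar, the inhibitor of Casp8 activation, was higher in NOD of both sexes on CodeLink. MRL/lpr females read 3.46, 3.57 and 3.30, and MRL/lpr males 3.18, 2.89 and 2.42. NOD females read 5.68, 6.10 and 4.75, and NOD males 4.40, 5.64 and 4.48. The strains did not overlap. The log2 difference averaged over the sexes was 0.64 ± 0.10 (limma adjusted p = 0.000447), a ratio of means of 1.65. It was 0.60 ± 0.14 in females (adjusted p = 0.0092) and 0.68 ± 0.14 in males (adjusted p = 0.00327). With the methods' t-test the adjusted p was 0.0663 in females and 0.0596 in males.

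Affymetrix did not show this difference. Of its 4 Cflar probe sets 3 were tested, and their strain differences averaged over the sexes were 0.14 ± 0.19, -0.11 ± 0.30 and 0.13 ± 0.20, with adjusted p of 0.739, 0.882 and 0.767. The brightest, 1424996_at, read 356, 336 and 289 in MRL/lpr females and 322, 737 and 375 in NOD females. Its NOD female values overlapped those of MRL/lpr females. The fourth probe set stayed at or under 100 in all pools.

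Fadd, the adaptor between Fas and Casp8, passed no test. On CodeLink its mean was highest in NOD females, at 6.64 ± 0.81 (SD, n = 3), and 5.64 ± 0.25 in NOD males. The MRL/lpr means were 5.26 ± 0.43 for females and 5.99 ± 0.13 for males. On Affymetrix its signal ranged from 223 to 514. The strain difference was 0.11 ± 0.09 (limma adjusted p = 0.366) on CodeLink and 0.04 ± 0.18 (adjusted p = 0.941) on Affymetrix.

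Casp8, the initiator protease, was well above background in all pools, at the 92.1 percentile of mean intensity on CodeLink and the 85.9 percentile of mean signal on Affymetrix. On CodeLink it read 22.4, 19.8 and 20.2 in MRL/lpr females and 26.5, 32.2 and 25.1 in NOD females, without overlap. The female strain difference was 0.41 ± 0.14, with a limma adjusted p of 0.0541, and did not pass. The MRL/lpr males read 16.3, 14.8 and 13.1. The NOD males read 13.9, 17.1 and 15.7. Their difference was 0.08 ± 0.14 (adjusted p = 0.745). On Affymetrix the female difference was -0.36 ± 0.19 (adjusted p = 0.29), of the opposite sign.

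**Figure D2:**
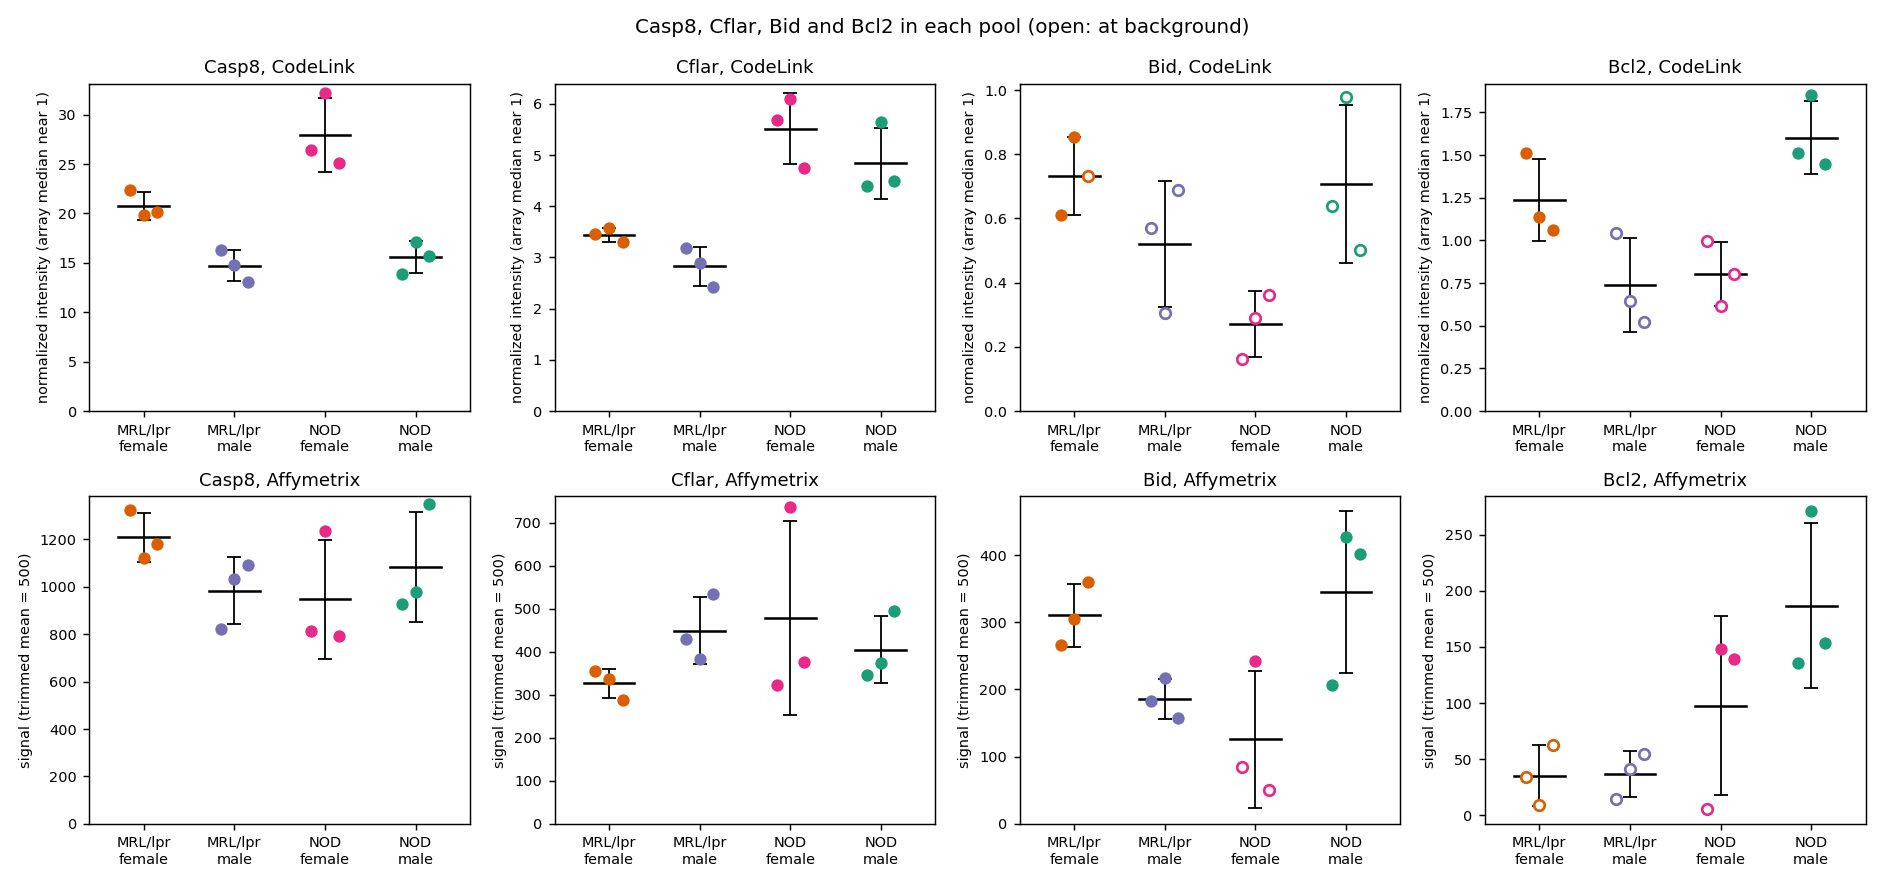
Normalized intensity (CodeLink, upper row) or rescaled signal (Affymetrix, lower row; brightest probe set of each gene) of Casp8, Cflar, Bid and Bcl2, one point per pool, with the mean and SD of 3 pools and open points at background. Cflar separates the strains on CodeLink and does not on Affymetrix, and Bid is lowest in NOD females on both.

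Of the mitochondrial members, Bid was low in NOD females. On Affymetrix probe set 1417045_at read 266, 305 and 360 in MRL/lpr females and 183, 217 and 158 in MRL/lpr males. It read 84.9, 242 and 50.8 in NOD females and 207, 427 and 401 in NOD males. The female strain difference was -1.18 ± 0.35 (limma adjusted p = 0.0354), and adjusted p = 0.288 with the methods' t-test. Since 2 of the 3 NOD female pools were at background, no fold is given. In males it was 0.70 ± 0.35 (adjusted p = 0.236). Replicate 2 of NOD females lay far above the other 2 pools of its group, and without it the female difference was -1.62 (adjusted p = 0.00238). Leaving out each of the 12 pools in turn, the female call was lost 5 times (adjusted p up to 0.179). Without replicate 1 of MRL/lpr females and replicate 3 of NOD females, the pools with salivary markers, the female difference was -0.94 (adjusted p = 0.237).

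The CodeLink Bid probe pointed the same way at the edge of detection. It read 0.609, 0.852 and 0.732 in MRL/lpr females, with 1 of these at background, and 0.162, 0.290 and 0.362 in NOD females, all at background. The log2 difference was -0.68 ± 0.19 (limma adjusted p = 0.023), and the methods' t-test gave an adjusted p of 0.0672. No fold is given, because MRL/lpr values lay under the lowest measurable level of the dimmer NOD female arrays.

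Bcl2, which protects cells from mitochondrial death, was higher in NOD males than in MRL/lpr males on CodeLink. MRL/lpr males read 1.05, 0.646 and 0.524, all at background. NOD males read 1.51, 1.85 and 1.45, above all of these. The log2 difference was 0.78 ± 0.18 (limma adjusted p = 0.00593), at least 1.61-fold higher intensity in NOD. With the methods' t-test the adjusted p was 0.0621. In females it was -0.42 ± 0.18 (adjusted p = 0.114), with MRL/lpr at 1.51, 1.14 and 1.06 and NOD at 0.994, 0.613 and 0.803.

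On Affymetrix the Bcl2 probe set read 14.7, 40.8 and 54.9 in MRL/lpr males and 136, 271 and 153 in NOD males. The groups did not overlap, yet the difference of 1.43 ± 0.51 missed the threshold (limma adjusted p = 0.069). In NOD females it read 5.57, 148 and 139, a spread as wide as that between the male groups.

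Bcl2l11, which promotes the deletion of lymphocytes, was carried by Affymetrix alone. Of its 5 probe sets, 4 were tested and none passed. The brightest, 1435448_at, read 323, 324 and 345 in MRL/lpr females and 300, 392 and 363 in MRL/lpr males. It read 248, 68.9 and 232 in NOD females and 352, 156 and 215 in NOD males. Its strain difference was -0.67 ± 0.23 (limma adjusted p = 0.0773), and those of the other 3 were 0.48 ± 0.42, -0.08 ± 0.30 and 0.10 ± 0.35.

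Counted together, 2 of 8 member probes passed between the strains averaged over the sexes on CodeLink, Fas and Cflar, both higher in NOD. Among all CodeLink probes 28.1% passed in this comparison. On Affymetrix 1 of 13 passed, Fas, against 9.65% of all probe sets. Fas had exceeded the filter on low values in NOD arrays alone on both platforms. In females 3 of 8 passed on CodeLink, with Cflar higher and Fasl and Bid lower in NOD, against 23.2% of all probes, and 1 of 13 on Affymetrix, Bid, against 9.79%. In males 3 of 8 passed on CodeLink, Fas, Cflar and Bcl2, all higher in NOD, against 25.4%, and 1 of 13 on Affymetrix, Fas, against 12.6%. The share of members that passed was thus near that of all probes, and the results lie in the single genes. The median member difference in males was 0.28 on CodeLink and 0.02 on Affymetrix, beside 0.02 and -0.01 over all probes.

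**Figure D3:**
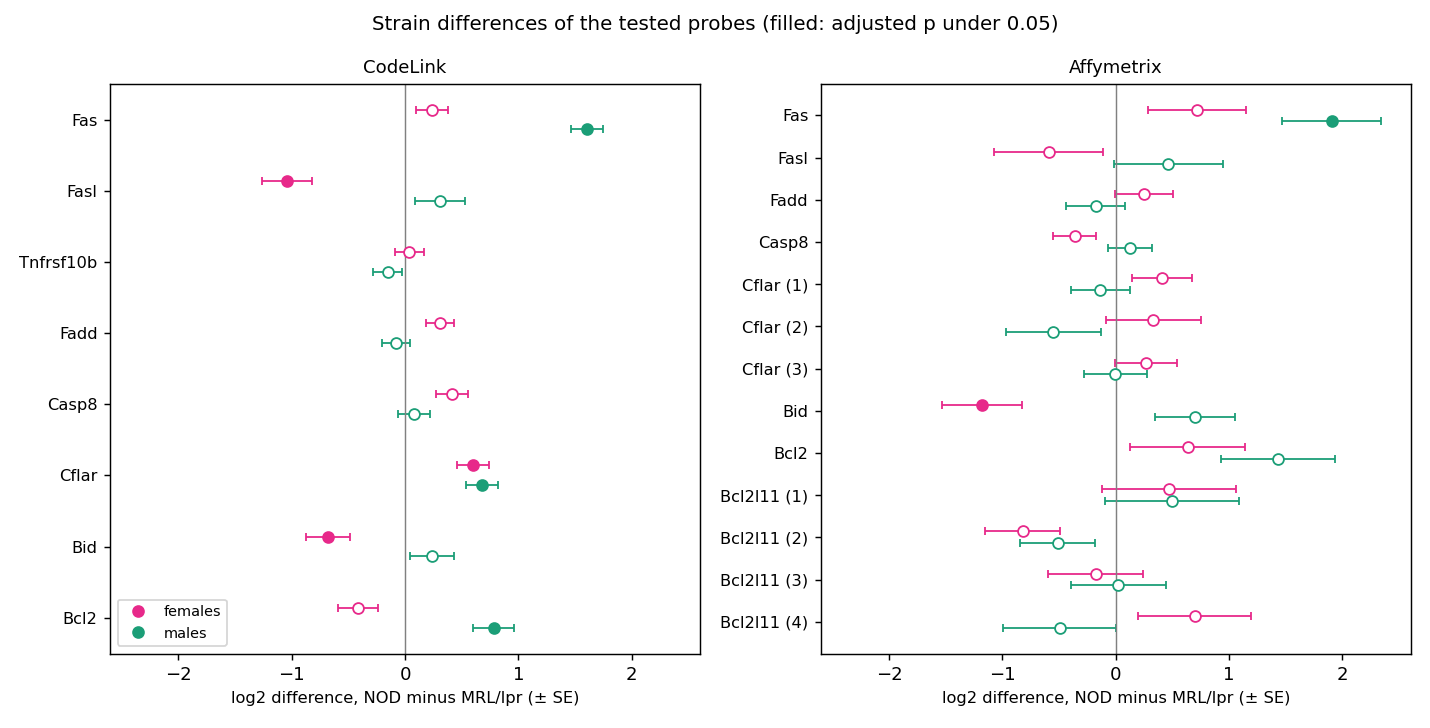
Log2 difference, NOD minus MRL/lpr, with SE, of each tested member probe in females and males; numbers in brackets tell apart probe sets of a gene in the order of their identifiers. Filled points passed at an adjusted p under 0.05, and Fas in males, higher in NOD, and Bid in females, lower in NOD, passed on both platforms. The Bid calls did not hold without some single pools.

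The second question was whether the sexes differed within each strain. In MRL/lpr, Fasl and Casp8 were higher in females on CodeLink. Fasl differed by 1.31 ± 0.22 on the log2 scale (limma adjusted p = 0.000828), at least 2.11-fold higher intensity in females, since all males were at background. This call was lost with the methods' t-test (adjusted p = 0.131). Casp8 differed by 0.49 ± 0.14 (adjusted p = 0.0258), a ratio of 1.41. The Casp8 call did not hold without replicate 1 (adjusted p = 0.0945) or 3 (0.0513) of the females or replicate 2 (0.067) or 3 (0.105) of the males, nor with the methods' t-test (0.0546). These were 2 of 8 probes, against 21.8% of all CodeLink probes.

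None of the 13 Affymetrix member probe sets passed between the sexes of MRL/lpr, against 12.8% of all probe sets in limma, and 1 had an unadjusted p under 0.05. With the methods' t-test the count was also 0. The closest was Fasl, higher in females by 1.20 ± 0.48 (adjusted p = 0.111), and its female and male pools did not overlap. The Affymetrix Casp8 difference was 0.29 ± 0.19 (adjusted p = 0.386). Fas was at background in both sexes on both platforms.

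In NOD, Fas and Bcl2 were higher in males, and Casp8 was higher in females, on CodeLink. The female minus male difference of Fas was -1.37 ± 0.14 (limma adjusted p = 1.01e-05), at least 1.53-fold higher intensity in males. That of Bcl2 was -0.70 ± 0.18 (adjusted p = 0.00933), at least 1.21-fold. Casp8 was higher in females by 0.82 ± 0.14 (adjusted p = 0.000661), a ratio of 1.80. Bid differed by -0.63 ± 0.19 (adjusted p = 0.0226, and 0.138 with the methods' t-test), but all 6 of its pools were at background and no fold is given. These were 4 of 8 probes, against 33.4% of all CodeLink probes.

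On Affymetrix 1 of 13 probe sets passed between the sexes of NOD, against 14.9% of all. Bid was lower in females by -1.27 ± 0.35 (limma adjusted p = 0.0165), although the groups overlapped and 2 of the 3 female pools were at background. With the methods' t-test the adjusted p was 0.266. The call also did not hold without the pools with salivary markers (-0.94, adjusted p = 0.121). Fas differed by -1.17 ± 0.44, with no overlap and 2 of the 3 female pools at background, and missed the threshold (adjusted p = 0.077). It passed under 5 other settings, given with the processing, while its limma adjusted p rose to 0.246 in others. Without each pool in turn it also missed the threshold (limma adjusted p of 0.0631 to 0.23). Casp8 differed by -0.20 ± 0.19 (adjusted p = 0.585), so the CodeLink excess in females was not found on the other platform.

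**Figure D4:**
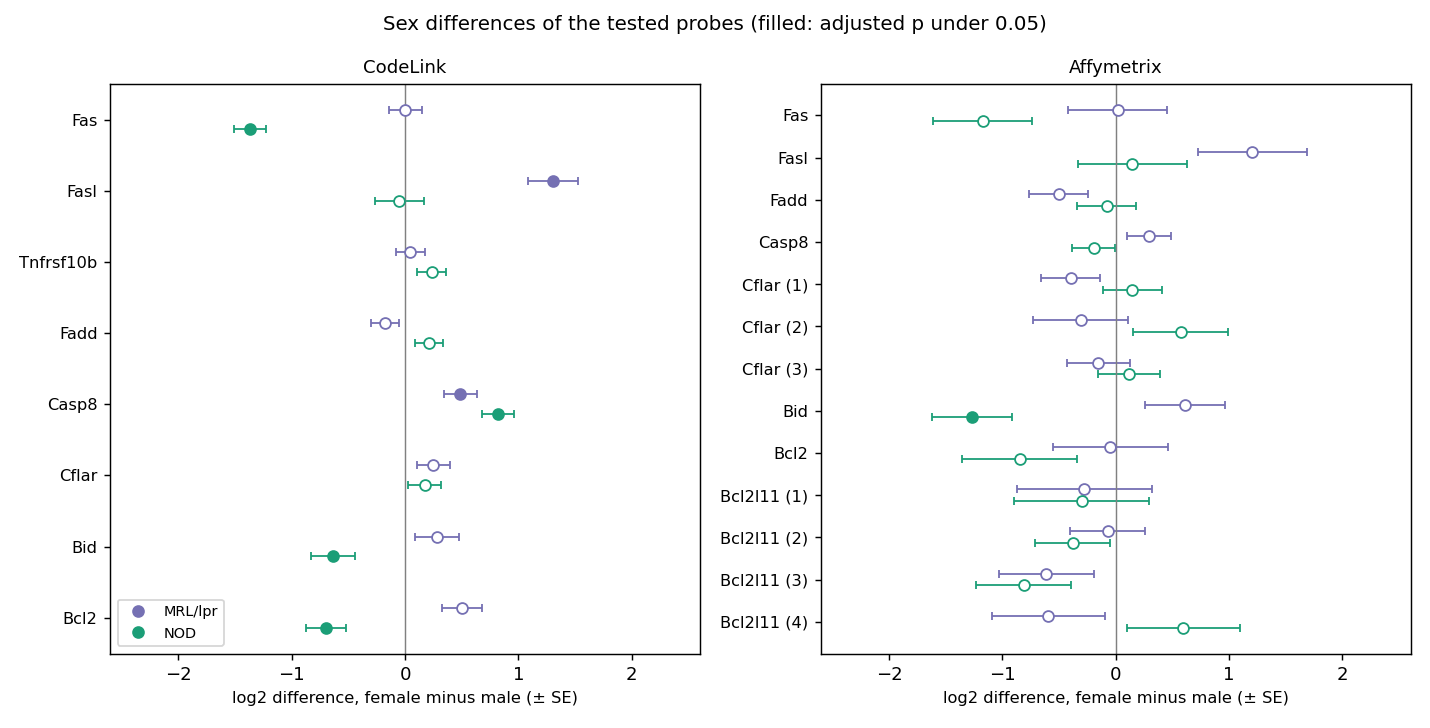
Log2 difference, female minus male, with SE, of each tested member probe in MRL/lpr and in NOD; numbers in brackets tell apart probe sets of a gene. Filled points passed at an adjusted p under 0.05, with Fasl on the female side in MRL/lpr and Fas on the male side in NOD on CodeLink.

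The sex difference itself differed between the strains for 4 of 8 CodeLink members, against 20.9% of all probes, and for 1 of 13 on Affymetrix, against 10.2%. On CodeLink the difference of differences, NOD minus MRL/lpr, was -1.37 ± 0.20 for Fas (limma adjusted p = 0.000312), -1.36 ± 0.31 for Fasl (adjusted p = 0.00781), -1.20 ± 0.25 for Bcl2 (adjusted p = 0.00469) and -0.92 ± 0.27 for Bid (adjusted p = 0.0303). Fas and Bid had their larger sex difference in NOD, toward males, and Fasl had its own in MRL/lpr, toward females, with NOD at -0.05 ± 0.22 and at background in both sexes. Bcl2 differed in opposite directions on CodeLink, by 0.50 ± 0.18 in MRL/lpr, which did not pass (adjusted p = 0.0647), and -0.70 ± 0.18 in NOD. The Affymetrix Bcl2 differences were -0.05 ± 0.51 in MRL/lpr, at background in both sexes, and -0.85 ± 0.51 in NOD (limma adjusted p = 0.97 and 0.313). Their difference was -0.80 ± 0.72 (limma adjusted p = 0.581), so the opposite directions were seen on CodeLink alone. On Affymetrix Bid passed at -1.87 ± 0.50 (adjusted p = 0.0162), while Fas, at -1.19 ± 0.62 (adjusted p = 0.266), and Fasl, at -1.06 ± 0.68 (adjusted p = 0.396), did not. The Affymetrix Bid call did not hold without the 2 pools with salivary markers, without replicate 2 or replicate 3 of NOD males, or with no intensity trend.

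Markers of immune cells moved with Fas in NOD males, and in bulk tissue fewer cells of a type and less RNA per cell cannot be told apart. The summed T cell markers on CodeLink were 52.6 to 64.5 in NOD males and 16.1 to 20.8 in their female counterparts. In MRL/lpr they were 29.4 to 35.5 for the females and 28.8 to 33.1 for the males. On Affymetrix they were 4145 to 4955 in NOD males and 539 to 1532 in NOD females, and the sexes of MRL/lpr were apart, with 2382 to 2962 for females and 1341 to 1639 for males. Of these markers 4 of 8 were higher and 1 lower in MRL/lpr females than males on CodeLink, and 2 of 11 were higher on Affymetrix. The summed B cell markers were 49.6 to 82.2 in NOD males and 8.69 to 28.4 in all other pools on CodeLink, and 9383 to 12143 against 764 to 1899 on Affymetrix. Between the males, 6 of 8 T cell and 6 of 9 B cell markers were higher in NOD on CodeLink, 5 of 11 and 7 of 9 on Affymetrix, and none was lower. Of all probes 15.1% were higher and 10.3% lower in NOD males on CodeLink, and 6.69% and 5.96% on Affymetrix. Of the defining markers, Cd3e was at background on all CodeLink arrays. The summed acinar and duct cell markers were lowest in NOD males, at 807 to 1128 against 1210 to 2099 in the other pools on CodeLink and 162814 to 190674 against 220410 to 304278 on Affymetrix. The part of these markers in the Fas difference was not tested.

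Within MRL/lpr some lists of immune markers differed between the sexes more than others, and Fas was at background in both. The CodeLink T cell sums overlapped. B cell sums on CodeLink were close, at 23.8 to 28.4 in females and 21.3 to 23.4 in males. Of the B cell markers 3 of 9 were higher in females on CodeLink and 2 of 9 on Affymetrix. Of the macrophage and dendritic cell markers 8 of 9 were higher in females on CodeLink and 8 of 12 on Affymetrix, with sums of 220 to 296 in females and 104 to 151 in males on CodeLink. Of all probes 13.7% were higher in females and 8.08% in males on CodeLink, and 6.83% and 5.96% on Affymetrix. In MRL/lpr females these sums were well above those of NOD females, at 85.0 to 127, and Fas was not above background in either group on CodeLink. Of the cytotoxic and natural killer cell markers, 6 of 8 were higher in MRL/lpr females than males on CodeLink and 1 was lower, and 2 of 9 were higher on Affymetrix. Their CodeLink sums were 23.4 to 45.7 in MRL/lpr females against 13.2 to 16.1 in the males of that strain. They were 27.9 to 37.5 in NOD males and 5.77 to 9.48 in NOD females. On Affymetrix the sums were 2185 to 2915 in MRL/lpr females and 1202 to 1690 in MRL/lpr males. The Affymetrix sums in NOD were 2140 to 3696 for the males and 635 to 1246 for the females. The part of the cytotoxic and natural killer cell markers in the Fasl difference was not tested.

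**Figure D5:**
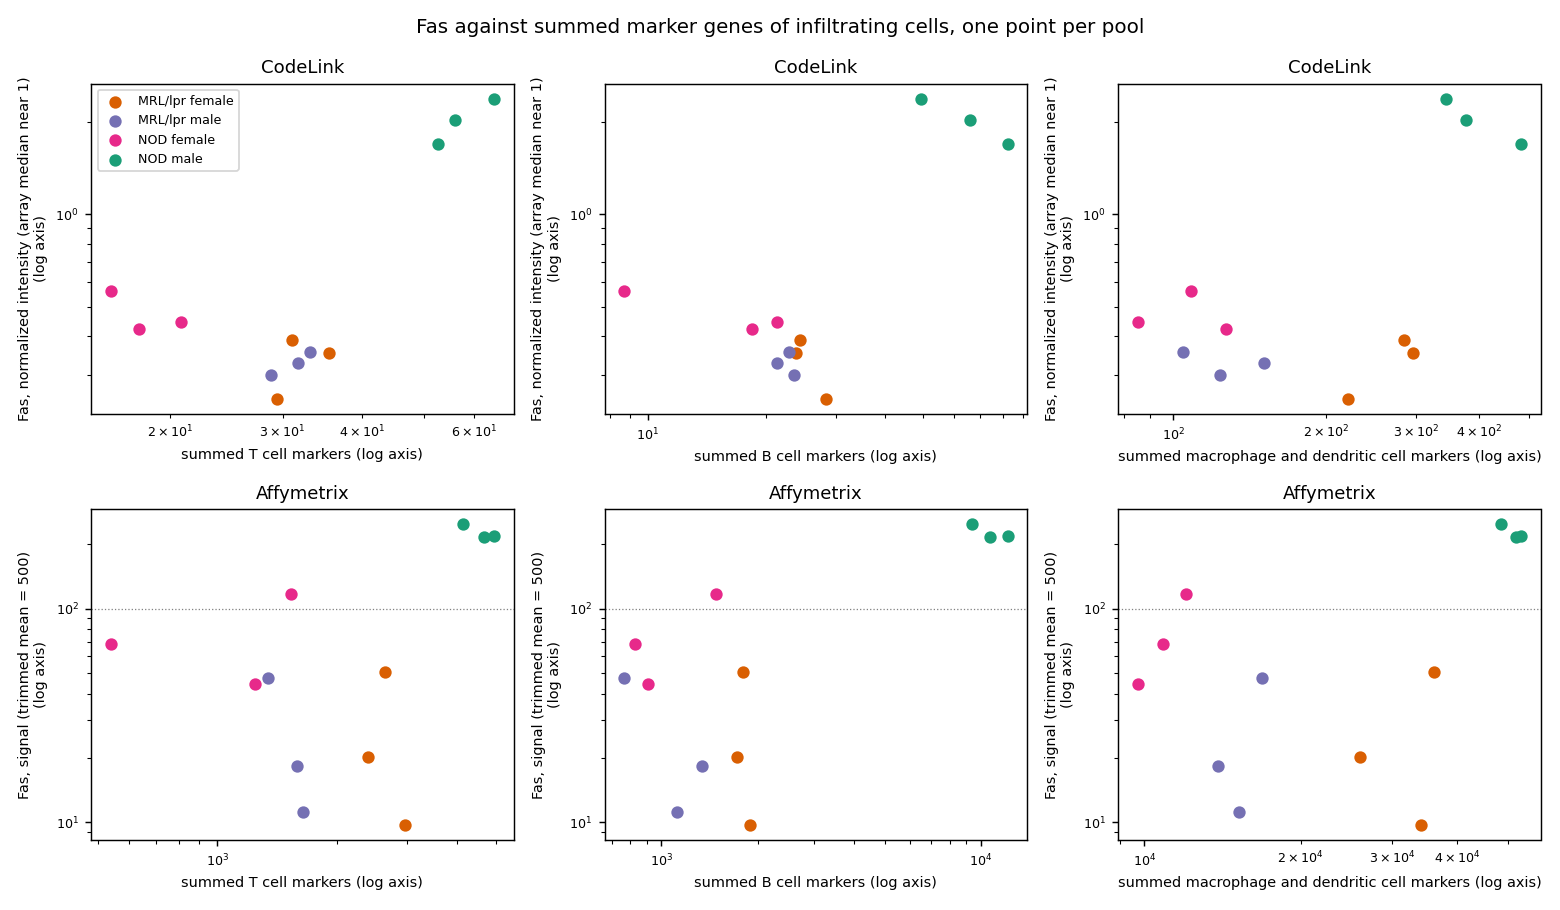
Fas level (vertical, log axis) against the summed T cell, B cell, or macrophage and dendritic cell markers (horizontal, log axis) of each pool on CodeLink (upper row) and Affymetrix (lower row, dotted line at a signal of 100). NOD male pools lie at the upper right in every panel, and MRL/lpr female pools, with macrophage sums of 220 to 296 on CodeLink, remain at background for Fas.

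The genes most like Fas across the 12 CodeLink arrays were Tyms (Pearson r = 0.992), Twist2 (0.991), Uroc1 (0.987), Olfr140 (0.982) and H2-DMb2 (0.980). On Affymetrix they were Fcrla (0.941), Hmgn1 (0.940), Odr4 (0.922), Cmtm7 (0.917) and Serpina3n (0.912). No gene appeared in both lists. Most like Fasl were Myl6 (0.958), Poglut1 (0.943), Casp12 (0.928), Noc4l (0.923) and Retn (0.917) on CodeLink, and Pdpn (0.886), Rin1 (0.884), Slc43a3 (0.856), Lpp (0.853) and Tfip11 (0.837) on Affymetrix. These correlations are descriptions over arrays that fall into 4 groups and share the scaling of their platform.

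Among other ligands and receptors of the tumor necrosis factor family, Cd40, a costimulatory receptor of B cells and dendritic cells, and Ltb, a lymphocyte ligand needed for lymphoid tissue, were higher in NOD on CodeLink when averaged over the sexes. Cd40 averaged 5.79 in NOD males and 0.374 to 1.08 in the other groups, a strain difference of 1.21 ± 0.12 (limma adjusted p = 8.48e-06). Ltb averaged 7.21 in NOD males and 1.69 or less in each other group, a strain difference of 0.89 ± 0.14 over the sexes (adjusted p = 0.000366), although in females it was lower in NOD (-1.21, adjusted p = 0.000774). The female difference of Cd40 was -0.44 (adjusted p = 0.0779). These were the 2 of 9 tested genes that passed, where 18.4% of all CodeLink probes were higher and 9.76% lower in NOD. The corresponding shares on Affymetrix were 4.45% and 5.2%. On Affymetrix 1 of 12 passed, Tnfrsf1a, the main receptor of tumor necrosis factor, lower in NOD by -0.58 ± 0.17 (adjusted p = 0.031).

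Among adaptors and regulators near the receptors, 3 of 12 tested genes were higher and 2 lower in NOD on CodeLink, and 2 of 12 were higher and 1 lower on Affymetrix. The shares of all probes were 18.4% higher and 9.76% lower in NOD on CodeLink, and 4.45% and 5.2% on Affymetrix. Fbf1, a Fas-binding factor also known from cilia, was lower in NOD on both, by -0.93 ± 0.10 (limma adjusted p = 1.62e-05) and -0.85 ± 0.17 (adjusted p = 0.00128). Its levels were higher in males of both strains, with CodeLink means of 37.5 in MRL/lpr males, 18.8 in NOD males, 5.37 in MRL/lpr females and 2.67 in NOD females. Faim2, an inhibitor of Fas killing in neurons, was lower in NOD on CodeLink by -1.27 ± 0.15 (adjusted p = 3.87e-05). Traf1, induced in activated lymphocytes, averaged 9.76 in NOD males against 1.80 in MRL/lpr males (2.15, adjusted p = 5.97e-07), but was lower in NOD females, at 1.90 against 4.46 (-1.05, adjusted p = 0.000606). Faf1, a Fas-associated factor, averaged 31.3 in NOD males and 11.3 or less elsewhere. Fem1b and Birc2, which inhibits death signalling at the receptor, were higher in NOD on Affymetrix, by 0.44 ± 0.12 (adjusted p = 0.0247) and 0.51 ± 0.15 (adjusted p = 0.0303).

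Of the caspases and apoptosome genes, 0 of 9 were higher and 2 were lower in NOD on CodeLink, against 18.4% and 9.76% of all probes. Dffa, the inhibitor of the nuclease that cuts DNA in dying cells, averaged 18.2 in MRL/lpr females and 1.87 to 4.47 in the other groups, a strain difference of -1.64 ± 0.11 (limma adjusted p = 3.39e-07). Casp12, an endoplasmic reticulum caspase, averaged 14.6 in MRL/lpr females and 2.46 to 3.30 in the other groups, a strain difference of -0.93 ± 0.13 (adjusted p = 0.000134) and, in females alone, of -2.23 ± 0.18. On Affymetrix 1 of 11 passed, against 9.65% of all probe sets. It was Cycs (cytochrome c), higher in NOD by 0.58 ± 0.10 (adjusted p = 0.000387).

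In the rest of the BCL2 family, 5 of 12 tested genes were higher in NOD on CodeLink and none lower, and 1 of 12 was higher on Affymetrix. Of all probes 18.4% were higher and 9.76% lower in NOD on CodeLink, and 4.45% and 5.2% on Affymetrix. Bcl2l2 (Bcl-w), a protector like Bcl2, passed on both platforms, by 0.83 ± 0.10 (limma adjusted p = 3.58e-05) and 0.33 ± 0.10 (adjusted p = 0.041). Its CodeLink means were 62.0 in NOD females, 28.9 in MRL/lpr females, 27.0 in NOD males and 18.1 in MRL/lpr males. Bcl2a1b, a protector in blood cells, was higher in NOD by 0.71 ± 0.15 over the sexes (adjusted p = 0.00503) with a value missing in 1 array, and its near-identical copies may share its signal. It was higher in NOD males, with means of 43.2 against 6.46 (2.68, adjusted p = 3.7e-06), and lower in NOD females, with 8.29 against 20.9 (-1.27, adjusted p = 0.00112). Bnip3, a mitochondrial protein of the family, and Bok, an effector, were higher by 0.41 ± 0.10 (adjusted p = 0.00688) and 0.47 ± 0.11 (adjusted p = 0.00749). Bok was at background in all female pools.

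Of the inhibitors of apoptosis and their mitochondrial antagonists, 0 of 8 were higher and 2 lower in NOD on CodeLink, and 0 of 8 passed on Affymetrix. Over all probes 18.4% were higher and 9.76% lower in NOD on CodeLink, and 9.65% passed on Affymetrix. Naip5, a sensor of bacterial flagellin with near-identical paralogs, was lower in NOD by -0.94 ± 0.16 (limma adjusted p = 0.000997). Htra2, a mitochondrial protease, was lower by -0.78 ± 0.14 (adjusted p = 0.00146). Its CodeLink means differed more between the sexes, at 121 for females and 11.7 for males in MRL/lpr, and 106 and 4.19 in NOD. On Affymetrix 0 of the 8 tested genes of this list were higher in NOD females than males, with a highest log2 difference of 0.51. In MRL/lpr 2 of 8 were higher in females there, with a highest log2 difference of 1.90. These are counts over the list, and Affymetrix values of Htra2 itself are not given here.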

How the data were processed

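Per the labels, lacrimal gland RNA was hybridized to CodeLink UniSet Mouse 20K I and Affymetrix 430A 2.0 arrays. The authors deposited CodeLink intensities corrected for local background and scaled to a median near 1 per array, and linear Affymetrix signal values (GCOS), each array on its own scale, with no log. Each Affymetrix array was rescaled here to a trimmed mean of 500, leaving out 2% at each end. A probe was tested if it exceeded 0.5 (CodeLink) or 100 (Affymetrix) in at least 3 of 12 arrays with at least 2 values per group, leaving 13105 and 16167 probes. limma 3.58.1 in R 4.3.3 was fitted to log2(value + 0.5) or log2(signal + 50) of the 12 arrays of a platform, with 4 group means and an intensity trend. Log2 differences are on that scale, which understates changes of dim probes. The p-values were adjusted by the Benjamini-Hochberg method over all tested probes, and the code was tested on simulated data. A bound on a fold takes the geometric mean of the measured group over that of the group at background, set per array to its lowest good CodeLink value or to a signal of 100. Other genes are given by their brightest probe, and up to 4 per list and platform with the smallest p between the strains were named. Annotation gave 11377 CodeLink probes 1 gene and 6063 none, and 20393 Affymetrix probe sets 1 gene, 691 several and 1606 none. Members, lists and tests were chosen with earlier results of these data known.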

Additional observations from a re-analysis of the deposited data

Results flagged for a closer look

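The female minus male difference differed between the strains, by a limma test of the interaction, for 4 member probes on CodeLink and 1 on Affymetrix. On CodeLink the difference of differences, NOD minus MRL/lpr, was -1.371 for Fas, -1.355 for Fasl, -1.198 for Bcl2 and -0.9184 for Bid on the log2 scale. On Affymetrix it was -1.874 for Bid, a call that did not hold without the 2 pools with salivary markers. Of the CodeLink pools, only those of NOD males were above background for Fas. For Bcl2 the NOD male and the MRL/lpr female pools were above background and the pools of the opposite sex in each strain were not. For Fasl only the MRL/lpr female pools were above it. Being at background depends partly on the brightness of the array. The lowest good value was 0.574 to 0.810 on MRL/lpr female, 0.893 to 1.00 on MRL/lpr male and 1.22 to 1.36 on NOD female arrays. Bcl2 at 1.06 in an MRL/lpr female pool counted as above background, and at 1.05 in an MRL/lpr male pool as at background. The CodeLink Bid value rests on pools of which 10 of 12 were at background.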

How the results depend on the processing

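No value reversed under any alternative, and the exact permutation of Fas kept its direction and side of the threshold, at 0.67 to 1.37 on CodeLink and 0.93 to 2.09 on Affymetrix. The p-values rest on 3 pools per group, dim probes limit what can be seen, and the Affymetrix background is a set signal of 100. On CodeLink, setting spots at background to missing left 3 member probes to test and counts of 1 between strains over the sexes, 1 between strains in males, 1 between sexes in each of MRL/lpr and NOD, and 0 for sex by strain. The methods' t-test gave 1 over the sexes, 0 in females, 1 in males and 0 between the sexes of MRL/lpr on CodeLink, and 0 over the sexes and 0 in females on Affymetrix. Over all probes it called 915 instead of 3689 and 978 instead of 3045 on CodeLink, and 291 instead of 1560 and 96 instead of 1583 on Affymetrix, for the strain comparisons over the sexes and in females. On Affymetrix the female strain count was 0 with no filter, with no intensity trend and with only the groups compared. The male strain count was 2 with signals as deposited, with 100 added before the log and with only the groups compared. The count between the sexes of NOD was 2 in these 3 settings and with no intensity trend, and the sex by strain count was 0 with no trend. The cause was not tested. Signals as deposited moved the median of all probe sets to -0.38 between strains in females, 0.52 in males, 0.41 between sexes in MRL/lpr and -0.49 in NOD, and changed calls from 1560 to 459 over the sexes, from 1583 to 1003 in females and from 2068 to 1112 between the sexes of MRL/lpr. Fas between the sexes of NOD on Affymetrix passed with them (-1.61, limma adjusted p = 0.0316), with 100 added (-0.91, 0.0424), with no trend (-1.17, 0.0168), with only the groups compared (-1.17, 0.0419) and with the methods' t-test (-1.13, 0.0476). Its limma adjusted p rose to 0.246 in other settings and was 0.0631 to 0.23 without each pool in turn. Leaving out the 2 pools with salivary markers, chosen after seeing the data, gave counts of 1 between the sexes of MRL/lpr on CodeLink and, on Affymetrix, 0 between strains in females, 0 between the sexes of NOD and 0 for sex by strain.

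Leaving out each pool in turn gave CodeLink counts of 2 to 5 between strains in females and 1 to 3 between the sexes of MRL/lpr. On Affymetrix it gave 1 to 3 over the sexes, 0 to 1 in females, 1 to 2 in males, 0 to 1 between the sexes of NOD and 0 to 1 for sex by strain. The Bid calls were those lost most often. On Affymetrix the female strain call was lost without any MRL/lpr female pool or NOD female replicate 1 or 3 (adjusted p up to 0.179), the NOD sex call without NOD female 1 or 3 or NOD male 2 or 3 (up to 0.102), and the interaction without NOD male 2 or 3 (up to 0.0559). On CodeLink the corresponding p rose to 0.0884, 0.0922 and 0.0755. Same-numbered pools of different groups deviated together little (correlations -0.0808 to 0.114), but 3 pools per group cannot exclude a pairing. NOD female and male pools of the same number correlated slightly more than those of other numbers on both platforms. On CodeLink MRL/lpr and NOD females of the same number correlated slightly less. With the replicate block the CodeLink count between the sexes of MRL/lpr was 3 instead of 2, and the other counts were equal to those without it.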
